A study of Mus musculus with 4 samples.

Results

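Of 7484 regions enriched by immunoprecipitation (IP) of a GS-tagged thyroid hormone receptor alpha 1 (TRα1) from mouse striatum, 861 lay between genes but close to them. These intergenic regions were taken from the 7412 autosomal peaks by position alone. Their summits fell outside every protein-coding gene, more than 1 kb and at most 30 kb from the nearest protein-coding gene end, and neither inside nor within 1 kb of a long non-coding RNA (lncRNA) gene. They made up 11.6% of the autosomal peaks (95% exact interval 10.9 to 12.4). Chromatin was made from the striatum of mice that carry a Gad2-Cre driver, which is active in GABAergic neurons, together with a Thra-GS allele that adds the tag to the receptor. The series holds 3 IP libraries on IgG-coated magnetic beads, labelled as fractions 1, 2 and 3, and 1 input library, which had no antibody. The labels do not say whether the fractions come from separate animals or from 1 IP, and age, sex and number of animals were not found there. Only 1 peak list was made from them, so no value has a spread between libraries, and the intervals below cover counting error over peaks only. An IP without the tagged receptor was not analysed here, so recovery of chromatin by the beads and binding of the receptor cannot be told apart.

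TRα1 is a nuclear receptor that binds DNA with or without its hormone, usually together with a retinoid X receptor, and recruits corepressors or coactivators. Its classical element is a direct repeat of the half-site AGGTCA with a spacer of 4 bases. In brain the hormone is known for its part in the maturation of neurons, and many response elements of its target genes lie at a distance from the promoter. The striatum consists mainly of GABAergic projection neurons, with fewer interneurons and glia.

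The sequence under the 861 summits was not used here, since only promoter windows were at hand. Those windows run from 250 bases before to 50 after each RefSeq gene start on GRCm38.p6, the build of the peak list, and they matched 604 of the 768 genes nearest to a member. For 17 of these genes a second peak had its summit inside the gene's own promoter window. The AGGTCA half-site, on either strand, was present in 3 of those 17 windows, 17.6% (exact interval 3.799 to 43.4), beside 80 of the 450 windows that hold any autosomal summit, 17.8%. The 250 bases before the gene start are shown for these 3, 5′ to 3′ on the gene's strand with the half-site in capitals, because an intergenic peak, a promoter peak and the receptor's half-site occur at the same gene. In Frmd5 the half-site is on the opposite strand and reads TGACCT. The fourth window has the strongest promoter peak of the 17, holds no half-site, and shows the E-box CACGTG in capitals.
Frmd5, chr2:121807058-121807307, minus strand: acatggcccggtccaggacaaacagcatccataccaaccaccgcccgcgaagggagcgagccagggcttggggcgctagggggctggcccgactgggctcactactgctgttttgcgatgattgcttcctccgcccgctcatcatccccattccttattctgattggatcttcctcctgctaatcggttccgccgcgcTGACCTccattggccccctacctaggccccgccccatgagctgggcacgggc
Lsamp, chr16:39984114-39984363, plus strand: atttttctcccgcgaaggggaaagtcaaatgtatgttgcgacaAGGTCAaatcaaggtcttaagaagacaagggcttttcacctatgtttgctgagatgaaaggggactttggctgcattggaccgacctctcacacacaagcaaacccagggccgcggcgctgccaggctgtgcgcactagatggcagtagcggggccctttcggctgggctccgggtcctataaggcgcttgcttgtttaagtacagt
Dgcr6, chr16:18066153-18066402, plus strand: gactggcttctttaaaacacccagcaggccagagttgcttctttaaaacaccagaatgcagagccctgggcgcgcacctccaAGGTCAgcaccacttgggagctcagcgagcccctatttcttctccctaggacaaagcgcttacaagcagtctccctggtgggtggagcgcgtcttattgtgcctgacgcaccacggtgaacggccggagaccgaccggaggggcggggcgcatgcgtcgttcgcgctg
Lingo3, chr10:80844040-80844289, minus strand: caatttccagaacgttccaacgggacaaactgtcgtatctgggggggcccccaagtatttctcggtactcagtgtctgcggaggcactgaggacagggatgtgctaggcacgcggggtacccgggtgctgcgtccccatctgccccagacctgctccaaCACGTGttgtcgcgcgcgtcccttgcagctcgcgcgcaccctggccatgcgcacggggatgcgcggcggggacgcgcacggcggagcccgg

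In Frmd5, which encodes a FERM domain protein, the half-site began at base 199 of the window and the peak summit lay at base 217. The promoter peak had a fold enrichment over local background of 6.20, and the intergenic member, 25619 bp from the gene, had 17.6. In Lsamp, a neuronal cell adhesion gene, the half-site began at base 44 and the summit lay at base 221. Its folds were 5.65 at the promoter and 4.25 at the member, which lay 8527 bp beyond the far end of this long gene and so not close to the promoter. In Dgcr6 the half-site began at base 83 and the summit lay at base 275, with folds of 5.19 at the promoter and 13.8 at the member 19451 bp away. Lingo3, of a family of neuronal leucine-rich repeat proteins, had the reverse order, with 29.6 at the promoter and 9.77 at the member 2103 bp away. The E-box began at base 160 and the summit lay at base 121. Among the windows of genes nearest to a member, 112 of 789 (14.2%, exact interval 11.8 to 16.8) held the half-site, beside 14.7% of all 20084 protein-coding windows. The direct repeat with a spacer of 4 and no mismatch was in none of the 20084 windows. Exact repeats were rare at every spacer from 0 to 8, in at most 9 windows, and also absent at spacers of 2 and 6. Its absence therefore says little. The GC box GGGCGG was in 53.1% and 47.0%, the E-box in 9.89% and 7.89%, and TGANTCA in 6.84% and 7.06%, in the same order and on both strands. Letters that match are a description of the windows and no sign of binding.

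The folds of the members differed little from those of peaks elsewhere. Their fold ran from 2.96 to 51.9 with a median of 7.17 (exact interval 6.93 to 7.50), beside 6.90 (6.85 to 6.96) for the 6551 other autosomal peaks. The intervals overlap, and the difference in medians was 0.277. There were 225 members with a fold of 10 or more, 26.1% (23.2 to 29.2), where all autosomal peaks had 24%. There were 38 with a fold of 20 or more, 4.41% (3.14 to 6.01), where all autosomal peaks had 3.58%. Once peaks with a −log10 q below 10 were left out, the difference in medians was -0.000865. Median pileup at the summit, the scaled height of stacked fragments, was 22.5 for members and 21.6 for the others, and median background was 2.00 in both. By place, median folds were 7.03 for the 1274 peaks within 1 kb of a gene end, 6.85 for the 3667 deeper inside genes, 6.92 for the 550 intergenic peaks at lncRNA genes and 7.04 for the 1060 peaks beyond 30 kb. Of the 100 strongest autosomal peaks 15 were members, where members were 11.6% of all autosomal peaks.

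**Figure D1:**
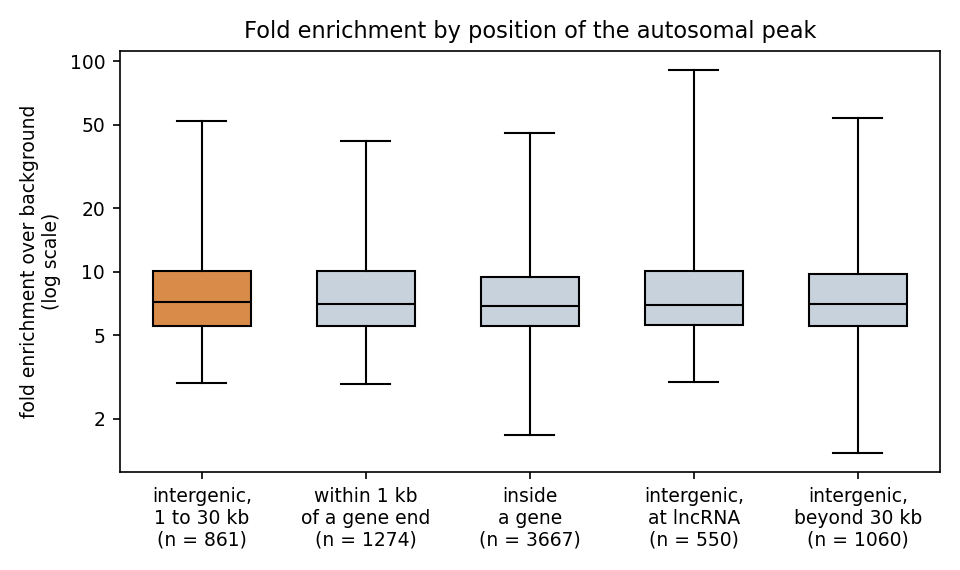
Fold enrichment over local background (log scale) of autosomal peaks in 5 classes of position, with boxes at the quartiles, lines at the medians and whiskers to the lowest and highest peak. The boxes lie at nearly the same height, with medians of 6.85 to 7.17, and the intergenic members are in orange.

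Peaks were sparser here than in or at genes, and their density was lower in the farthest bin than in the nearest. The autosomal territory in which a summit would meet the rule measured 368.7 Mb and held 2.34 members per Mb (exact Poisson interval 2.18 to 2.497). Gene spans more than 1 kb from their ends held 3.89 peaks per Mb (3.77 to 4.02), and the stretches within 1 kb of gene ends held 17.0 per Mb (16.1 to 18.01). From 1 to 5 kb of a gene there were 258 members, 2.75 per Mb (2.43 to 3.11). The density was 2.28 from 5 to 10 kb, 2.23 from 10 to 20 kb and 2.04 (1.73 to 2.39) from 20 to 30 kb. Neighbouring bins overlap in their intervals, while the first and the last do not. Members with a fold of at least 10 numbered 0.810 (0.638 to 1.01), 0.592, 0.491 and 0.562 (0.407 to 0.757) per Mb from the nearest to the farthest bin, and the intervals of the first and the last overlap. The median fold did not follow distance in 1 direction, with 7.50, 7.17, 6.85 and 7.26 in the 4 bins. The median distance was 9499 bp, with quartiles of 4289 and 17392 bp.

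Strand was known for the nearest gene of 676 members. Of these 328 lay upstream of the gene, 48.5% (exact interval 44.7 to 52.4), and 348 downstream. Per Mb of territory there were 2.12 upstream (1.90 to 2.36) and 2.54 downstream (2.28 to 2.83). The median fold was 7.50 upstream (7.17 to 7.997) and 7.17 downstream (6.83 to 7.50). The nearest gene is a name for the place, not a target shown by these data. The gap between the flanking genes had a median of 54.0 kb, and for 336 members, 39.0%, the gene on the other side was within 30 kb too. In 205 members, 23.8%, that gene was less than 2 times as far away as the nearest.

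**Figure D2:**
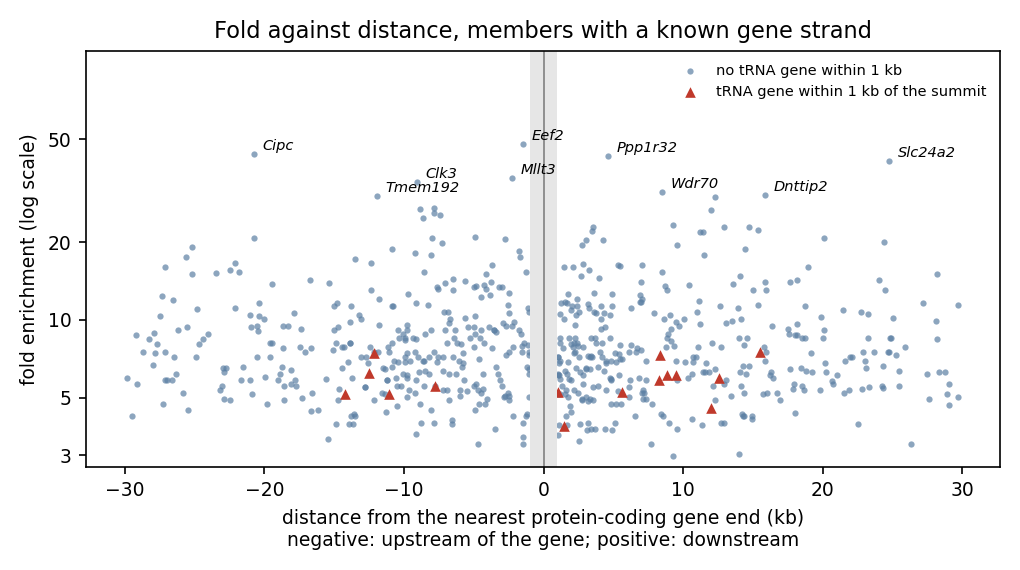
Fold enrichment (log scale) against distance from the nearest protein-coding gene end in kb for the 676 members with a known gene strand, upstream to the left and downstream to the right, with the 9 strongest named. Points are densest close to the gene, strong members occur at all distances, and red triangles mark members within 1 kb of a tRNA gene, which here all have folds below 8.

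At the margins of the rule the values were ordinary. The nearest members, 1003 bp from Sptlc1 and 1005 bp from Izumo1r, had folds of 6.20 and 3.58. Just short of 1 kb, peaks 988 bp from Mcidas and 929 bp from Rela had 6.41 and 4.91. The farthest members, 29861 bp from Calb1 and 29837 bp from Zfp706, had 7.22 and 6.20. Just beyond 30 kb, peaks near Ccnh and Slc22a23 had 6.52 and 13.7. At the lncRNA limit, members 1022 and 1024 bp from a lncRNA gene, near Calcoco1 and Scd2, had 9.41 and 6.14. Peaks at 999 and 995 bp, near Taf4 and Ahdc1, had 6.52 and 6.12 and were left out.

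The 25 strongest members had folds of 22.8 to 51.9, and each had a different nearest gene. They lay 1479 to 24770 bp from it, 10 upstream, 10 downstream and 5 beside genes of unknown strand. In 18 of the 25 the nearest gene had no peak inside it or within 1 kb of its ends. In 7 it held such a peak, beside 280 of all 861 members, 32.5%, so this was no particular trait of the strongest. The strongest was at chr1:74816506-74817126, 12778 bp from the Wnt ligand gene Wnt10a, where a pileup of 153 stood against a background of 1.97, a fold of 51.9. A second member, with a fold of 7.17, lay between it and Wnt10a, 3004 bp from the gene. The next was at chr10:81174865-81175405, 1479 bp upstream of Eef2, the gene of translation elongation factor 2, with a fold of 47.8. An end of Pias4, a SUMO ligase gene, lay 7432 bp away on its other side. The third, upstream of the CLOCK-interacting protein gene Cipc, is described with that gene.

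The others of the 25 are ordered here by the known role of the nearest gene, and no theme was tested among them. Some lay at genes of ion transport, membranes and signalling. The peak of 41.3 at chr4:86958019-86958559 lay 24770 bp downstream of Slc24a2, which encodes a potassium-dependent sodium and calcium exchanger. Slc24a2 held 4 more peaks inside or at its ends, the highest at 13.02. Acer2, a ceramidase gene, was almost as near to that member, at 25830 bp. Cacnb2, which encodes a beta subunit of voltage-gated calcium channels, had a member of 27.0 at chr2:14595851-14596217, 7817 bp upstream, and no other close peak. Adra1a, an alpha 1 adrenergic receptor gene, had 23.4 at 23698 bp, and Ttc7b, which encodes a scaffold of a phosphatidylinositol kinase complex, had 24.7 at 8613 bp upstream. Abcb9, a lysosomal transporter gene, had 26.5 at 11976 bp downstream and held 3 weaker peaks of up to 8.94.

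Others lay at genes of transcription, RNA and DNA. Mllt3, a chromatin reader gene, had 35.5 at 2274 bp upstream and a second member of 6.59 at 21508 bp on the same side. Clk3, a splicing kinase gene, had 34.2 at 9087 bp upstream, with Arid3b 15031 bp away on the other side. Tcf12, a basic helix-loop-helix factor gene, had 29.9 at 12317 bp downstream. Zfp385b, a zinc finger gene, had 26.9 at 8882 bp and 15.2 at 23446 bp, both upstream, and 6 peaks of up to 12.9 inside or at its ends. Dnttip2, which encodes a partner of terminal deoxynucleotidyltransferase, had 30.4 at 15873 bp downstream, inside the non-coding gene Gm40190, and Blm, a DNA helicase gene, had 23.3 at 9270 bp downstream and 5.80 farther out.

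Ppp1r32 had a member of 42.9 at 4609 bp downstream and a weaker one of 7.50, 1517 bp from the first. Wdr70 had 31.2 at 8481 bp, with Gdnf, the gene of a neurotrophic factor, 26994 bp away on the other side. Tmem192, of the lysosomal membrane, had 30.1 and Lratd2 29.8. Fis1, a mitochondrial fission gene, had 26.03 and Fam222a 25.4, both upstream. Lipg, the endothelial lipase gene, had 24.8 and Bcl2l10, of the BCL2 family, 23.8. Krt23, a keratin gene, had 22.8, while Sag, the retinal arrestin gene, and Pla2r1, a phospholipase A2 receptor gene, had 22.8 each.

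Most genes were nearest to a single member. The 861 members had 768 nearest genes, 3.72% of the 20661 autosomal protein-coding genes. There were 687 genes with 1 member, 70 with 2, 10 with 3 and 1 with 4. The gene with 4 was Camk2n1, which encodes an inhibitor of the calcium and calmodulin dependent kinase CaMKII. Its members had folds of 5.02, 6.99, 10.4 and 7.82 at 14704, 20631, 25245 and 26134 bp, all on the higher-coordinate side on chromosome 4. Of these, 1 passed a fold of 10, and Camk2n1 also held 1 peak of 6.28.

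The 10 genes with 3 members are named here after their values were seen. Their known roles vary, and no theme was tested among them. Rasd2, which encodes the striatal GTPase Rhes and is known to respond to thyroid hormone, had members of 6.85 and 6.59 upstream at 10449 and 1190 bp and 6.85 downstream at 10158 bp. It also held a peak of 7.52, so its 4 peaks were of nearly the same fold. Bcl11b, which encodes the projection neuron factor CTIP2, had members of 17.2 and 4.09 upstream at 13504 and 6539 bp and 5.18 downstream at 1058 bp, and it held 4 peaks of up to 11.5. Cipc had 43.9 at chr12:86923606-86924160, 20756 bp upstream, 13.02 at 12356 bp upstream and 6.47 at 3051 bp downstream, with no peak inside it. Its neighbour Irf2bpl, a transcriptional coregulator gene, had 10.5 downstream at 23231 bp and 8.94 and 5.97 upstream at 3426 and 10557 bp. The interval between these neighbours thus held 4 members, 2 nearer to each gene. Mcm5, a replicative helicase gene, had 6.91, 19.97 and 11.4, all downstream in the interval towards Rasd2. The others were Arl4d, Osbp, Plppr4, Sh3rf2 and Ttc8, with folds of 4.57 to 10.4. Every member of Osbp lay within 1 kb of a transfer RNA gene.

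**Figure D3:**
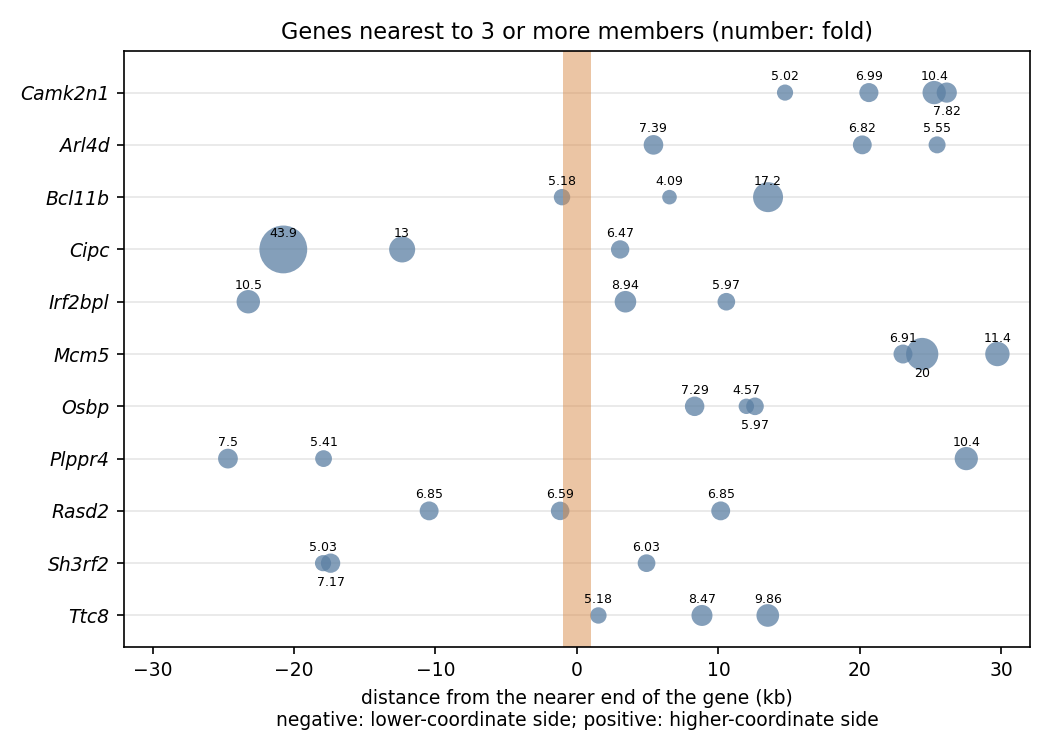
Position of each member of the 11 genes that were nearest to 3 or more, as distance in kb from the nearer gene end, with the lower-coordinate side to the left; area and number give the fold, and the orange band is the 1 kb left out on either side. Members of Camk2n1, Arl4d, Mcm5, Osbp and Ttc8 all lie on 1 side, and Cipc has the strongest member at 43.9.

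The share of members with a close neighbour was near that of other peaks. Another autosomal peak lay within 10 kb of 173 members, 20.1% (exact interval 17.5 to 22.9), beside 19.2% (18.3 to 20.2) of the other peaks. By class it was 20.9% inside genes, 21.1% at lncRNA genes, 18.4% at gene ends and 13.6% beyond 30 kb. The nearest gene held a peak inside it or within 1 kb of an end for 280 members, 32.5% (29.4 to 35.8). Counted by gene, this was 240 of 768, 31.2%, beside 17.3% of all autosomal protein-coding genes. In 116 of these 240 genes the strongest member was stronger than every peak of the gene itself. Gene length was not matched in this comparison.

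Of 17 gene lists, 5 had a share of genes nearest to a member whose interval lay above that of all genes. These 5 intervals overlap one another, and each also overlaps that of the muscle and liver control genes, 11.1% (2.35 to 29.2). The lists were chosen with earlier results of these peaks known, so their direction is not independent evidence. Shares are read beside the 3.72% of all genes. No list was counted at the other autosomal peaks, so whether these shares are particular to the members was not tested. Thyroid hormone targets in brain reached 11 of 37, 29.7% (exact interval 15.9 to 47.0), with 14 members. Per Mb of their own intergenic territory that was 15.7 members (exact Poisson interval 8.61 to 26.4), where all genes had 2.34. Only 2 of the 14 had a fold of at least 10. Cyp11a1, which encodes an enzyme of steroid synthesis, had 12.6 at chr9:57988124-57988447, 9736 bp upstream, and a peak of 5.87 at its promoter. Dio3, the gene of the deiodinase that inactivates the hormone, had 11.6 and 8.94, both upstream. Nrgn, which encodes the calmodulin-binding protein neurogranin, had 9.04 at 20472 bp upstream. The remaining genes, Klf9, Hr, Rasd2, Egr1, Atp2b2, Ier5, Sema7a and Ntf3, had strongest members of 4.01 to 7.52.

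At Klf9, Hr and Rgs9 the intergenic member was not the strongest peak of the locus. Klf9, a Krueppel-like factor gene, had 1 member of 7.52 at 17088 bp upstream. Peaks of 32.9 and 15.8 inside the span of the lncRNA gene 2410080I02Rik, and a weaker one of 6.20 within 1 kb of it, were left out by the rule. Hr, the gene of the corepressor hairless, had a member of 7.50 at 1903 bp, beside a peak of 34.2 within 1 kb of an end of Reep4 and a peak of 9.41 within 1 kb of its own end. Rgs9, a regulator of striatal G-protein signalling, had a member of 8.15 at 4155 bp downstream and peaks of 36.1, 18.6 and 7.17 inside. Neither Thra, Thrb nor Gad2 was nearest to a member. A member of 12.2 lay within 30 kb of Thra, but 4498 bp from Msl1.

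Striatal projection neuron genes reached 8 of 38, 21.1% (9.55 to 37.3), with 13 members and 11.0 per Mb (5.85 to 18.8). Besides Bcl11b these included Gpr6, an orphan receptor gene of these neurons, at 11.1 and Ppp1r1b, which encodes DARPP-32, at 10.1. Circadian clock genes reached 5 of 24, 20.8% (7.13 to 42.2), with 8 members and 17.6 per Mb (7.61 to 34.7). Besides Cipc these were Hlf at 15.9 and Tef at 9.45, both PAR bZIP output factor genes, then Npas2 at 7.50 and Csnk1d at 5.22. Calcium channel and pump genes reached 7 of 30, 23.3% (9.93 to 42.3), with 8 members and 10.7 per Mb (4.64 to 21.2). Cacnb2 at 27.0 and Cacna1i, a T-type channel gene, at 20.8 led them, followed by Cacna1a, of P/Q-type channels, at 9.72. The list of Krueppel-like factors and immediate early genes had 5 of 32, 15.6% (5.28 to 32.8), with Egr4 at 16.6, Klf9 at 7.52 and Egr1 at 6.59. Its 5 members were 5.53 per Mb (1.79 to 12.9), an interval that holds the 2.34 of all genes.

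The lists share 15 symbols, so a gene can count under more than 1. Other lists had few genes here and intervals that held the share of all genes. For receptors, their coregulators and hormone supply it was 3 of 20 (3.21% to 37.9%), Tbl1xr1, of the corepressor complex, at 7.997, Rxrg at 4.48 and the coactivator gene Ncoa1 at 3.30. Voltage-gated potassium and sodium channels reached 4 of 35 (3.20% to 26.7%), with Kcng1 at 12.05, Scn2a at 8.47 and Scn3b at 5.20. GABA genes reached 1 of 21 and interneuron genes 2 of 29, Calb1 at 7.22 and Dlx2 at 4.40. Other nuclear receptors reached 2 of 33, Rarg at 8.47 and Ppara at 7.75. Of markers of other cells, astrocyte genes reached 2 of 18, S100b at 10.7 and Slc4a4 at 8.47, and glutamatergic neuron genes 1 of 18, Cux2 at 7.50. Oligodendrocyte (0 of 19), microglia (0 of 17) and endothelial and mural (0 of 20) genes had none, which allows shares of up to 17.6%, 19.5% and 16.8% by the exact interval. Glutamate receptor and scaffold genes also had none of 34, which allows up to 10.3%. Muscle and liver control genes reached 3 of 27 (2.35% to 29.2%), with Des at 14.4, Pck1 at 8.53 and Acta1 at 6.35. Their 3 members were 7.06 per Mb (1.46 to 20.6). That interval holds the 2.34 of all genes and overlaps the density intervals of the 5 lists above. Expression of these genes was not used here.

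**Figure D4:**
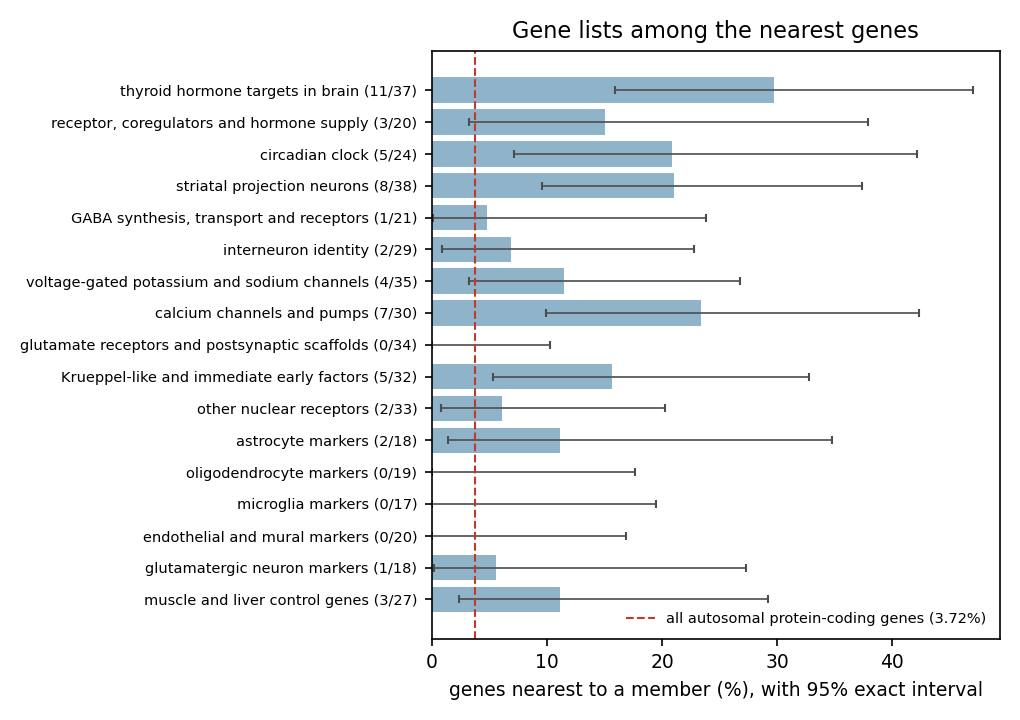
Share of each list's autosomal genes that are nearest to a member, in percent, with 95% exact intervals and the counts beside the names; the dashed line is the 3.72% of all autosomal protein-coding genes. Intervals of 5 lists lie to the right of the line, namely hormone targets in brain, clock, striatal projection neurons, calcium channels and pumps, and Krueppel-like and immediate early factors.

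A larger share of members than of the other peaks together lay at transfer RNA (tRNA) genes. RNA polymerase III transcribes these short genes, which often lie in groups between coding genes. A tRNA gene was within 1 kb of 19 members, 2.21% (exact interval 1.33 to 3.42), where all autosomal peaks had 0.58% and the other autosomal peaks 0.366% (0.235 to 0.545). By class it was 1.27% (0.513 to 2.60) of intergenic peaks at lncRNA genes and 1.02% (0.544 to 1.74) of peaks at gene ends, both overlapping the interval of the members. It was 0.0818% (0.0169 to 0.239) of peaks inside genes and 0.0943% (0.00239 to 0.524) of those beyond 30 kb. Stretches within 1 kb of a tRNA gene were 0.0732% of the members' territory. They held 70.4 members per Mb (exact Poisson interval 42.4 to 110), beside 2.29 (2.13 to 2.45) in the rest. These intervals count each member as independent. However, 12 of the 19 had another peak within 10 kb, beside 161 of the other 842, so the intervals at tRNA genes may be too narrow. In 10 of the 19 the summit lay inside a tRNA gene, in 15 it lay within 100 bp, and 12 had more than 1 tRNA gene within 1 kb. Together 34 tRNA genes on 8 chromosomes were involved.

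Members at tRNA genes were weak with 1 exception. The member at n-TGgcc3, a glycine tRNA gene 137 bp from the summit, is the peak of 51.9 near Wnt10a. The other 18 had folds of 3.90 to 7.50. The median of the 19 was 5.87 (exact interval 5.25 to 6.23), beside 7.21 (7.06 to 7.50) for the other 842 members and 5.21 (4.72 to 6.30) for the 24 peaks at tRNA genes outside the members. The former 2 intervals do not overlap. Only 5 of the 19 had a −log10 q of at least 10, beside 481 of 842. Median background was 2.09 at the 19 and 2.00 at the 842. Examples were n-TEttc6, a glutamate tRNA gene near Nufip1, at 7.50, n-TKctt11, a lysine tRNA gene near Abt1, at 6.23, and n-TLcag3, a leucine tRNA gene near Fcgr4, at 6.12. Reads from near-identical tRNA copies may have been placed at the wrong copy, and the sources used here do not say how such reads were handled. The part of such reads in these peaks was not tested.

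**Figure D5:**
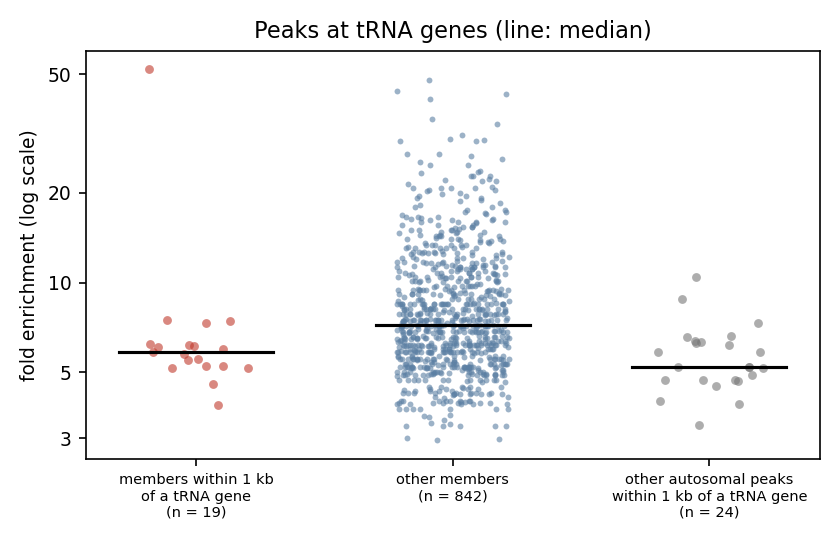
Fold enrichment (log scale) of each peak in 3 groups, the 19 members within 1 kb of a tRNA gene, the other 842 members and the 24 other autosomal peaks at tRNA genes, with lines at the medians of 5.87, 7.21 and 5.21. The member at 51.9 stands apart from the other 18 at tRNA genes.

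Single members met other short RNA genes. A member of 16.0 on chromosome 3 lay 11 bp from Terc, the telomerase RNA gene, and a member of 13.7 near Nemf had its summit inside Rn7s2, a signal recognition particle RNA gene. A snRNA gene was within 1 kb of 6 members, 0.697% (exact interval 0.256 to 1.51), beside 0.229% (0.134 to 0.367) of all autosomal peaks. These intervals overlap, and the members near Eapp and Snx6 among them lay close together on chromosome 12. No snoRNA gene was within 1 kb of a member, which allows a share of up to 0.428% by the exact interval, where all autosomal peaks had 0.121%. A miRNA gene was within 1 kb of 1 member, 0.116%, where all autosomal peaks had 0.337%. The only miRNA gene was Mir760, 547 bp from a member with a fold of 4.01 that lay 8979 bp downstream of Dnttip2, also inside Gm40190. Its mature forms from RefSeq on GRCm38.p6 are shown with the seed, bases 2 to 8, in capitals.
mmu-miR-760-3p, chr3:122293615-122293634, minus strand: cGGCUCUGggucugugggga
mmu-miR-760-5p, chr3:122293649-122293671, minus strand: cCCCUCAGgccaccagagcccgg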

How the data were processed

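Chromatin IP from mouse striatum (3 IP libraries, 1 input) was analysed from the authors' single peak list. The submitters' processing notes list MACS2 2.1.1.20160309.0, Bowtie2 2.3.4.2 and 2 names of 1 build, mm10 and GRCm38, with no settings. The sources used here do not say whether the IP libraries were pooled. The deposited columns hold positions, the pileup signal at the summit, fold enrichment as a linear ratio, and −log10 of p-values and q-values, per the file headers and ranges. Library depths were not used here. Fold, pileup and q are the authors' own values and only describe, rank or filter peaks.

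Summits were placed against 20661 autosomal protein-coding genes and lncRNA genes of RefSeq GRCm38.p6 (Python 3.11.15, pandas 2.3.3, scipy 1.17.1). Placement was tested on simulated data. Background is (pileup + 1) / fold − 1. Shares and medians carry 95% exact binomial intervals, densities exact Poisson intervals; no p was computed because peaks of 1 list are not replicates. Territory includes assembly gaps. The members, the 17 lists (464 entries, 1 matched by an older symbol) and the naming rule were chosen with earlier results of these data known. The text names genes nearest to the 25 strongest members, those with 4 or more members, up to 3 per list with the strongest member, Klf9, Hr, Thra, Thrb, Dio3, Gad2 and Rgs9, peaks at the 1 kb and 30 kb limits, and short RNA genes at the 25 strongest; others were chosen after their values were seen. The values of 2 genes under this rule are not reported here. Strand came from the promoter table. Alternatives were a q filter, removal of extremes or of high background, other distances, other lncRNA rules, fewer coding genes and whole peaks.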

Additional observations from a re-analysis of the deposited data

Results flagged for a closer look

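The autosomal rule sets aside chromosomes X and Y. On chromosome X, 11 of 69 peaks met the same distance rules, 15.9% (95% exact interval 8.24 to 26.7). They are given because they lie outside the comparisons above. Their median fold was 5.87 and the highest, 11.6, lay 3199 bp from Ripply1, a transcriptional corepressor gene. Mid1, a ubiquitin ligase gene, had 10.8 and 4.38 at 6155 and 7288 bp. Pou3f4, a POU factor gene, had 5.65 at 5982 bp. On chromosome Y, 2 of 3 peaks met the distance rules, both nearest to Gm52481, with folds of 10.4 and 4.37.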

How the results depend on the processing

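No paired analysis was possible because 1 peak list holds all libraries, and for the same reason no library could be left out. Of 132 pairs of a result and an alternative, 119 stayed within the interval of the reported value, or within 1.5 times for counts. With −log10 q of at least 10 the difference in median fold turned to -0.000865, where the other alternatives gave 0.266 to 0.370. That filter left 486 members and 451 nearest genes, with a median fold of 9.45 and 46.3% at a fold of at least 10. In that setting 15.0% had another peak within 10 kb and 23.0% a gene with a peak of its own, since weaker peaks were removed. The latter was 38.2% at an inner distance of 500 bp. There, members within 1 kb of an end counted as the gene's own peak, so this value cannot be compared with the others. The median distance followed the rule, with 7680 bp at an outer limit of 20 kb, 12230 bp at 50 kb, 8570 bp at an inner limit of 500 bp and 10690 bp at 2 kb. Without peaks at tRNA genes (chosen after seeing the data), 4.16% of members in place of 6.27% were near a short RNA gene or pseudogene. The half-site share under the summits was not run, since no promoter window overlapped a member.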

Other observations

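Pseudogenes were within 1 kb of 25 members, 2.90% (95% exact interval 1.89 to 4.26), beside 0.641% (0.462 to 0.866) of the other autosomal peaks and 1.42% (0.794 to 2.32) of peaks beyond 30 kb. The territory near pseudogenes was not measured. By chromosome, members were 8.90% (5.90 to 12.8) of the peaks on chromosome 16 and 15.4% (11.6 to 19.8) on chromosome 13, with overlapping intervals. Per 100 protein-coding genes they were most frequent on chromosome 12, at 7.51, and least on chromosome 7, at 2.36. Peaks of all classes differed in the same direction, with 364 for 679 genes on chromosome 12 and 478 for 2030 genes on chromosome 7. Members were 14.01% (10.6 to 18.01) and 10.04% (7.497 to 13.1) of these peaks, with overlapping intervals. The widest member, 1323 bp near Klrb1c, a natural killer cell receptor gene, had a fold of 14.3.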
